A study of Mus musculus with 9 samples.

Results

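The cyclin-dependent kinase (CDK) inhibitor family is described here in myeloid-derived suppressor cells (MDSCs), immature myeloid cells that accumulate in tumour-bearing hosts. The 7 genes Cdkn2a, Cdkn2b, Cdkn2c, Cdkn2d, Cdkn1a, Cdkn1b and Cdkn1c were found by symbol, each as 1 of 23284 gene symbols in every sample. RNA-sequencing values came from 9 samples in 3 groups of 3. The groups were polymorphonuclear (PMN-) MDSCs of WT mice, monocytic (Mo-) MDSCs of WT mice and Mo-MDSCs of mice labelled p16/p21 double knockout (DKO). All cells came from the spleens of mice carrying subcutaneous tumours of SCT cells, a spindle cell tumour line that the study had obtained from a chemically treated p16-knockout mouse, so that the host cells and the tumour cells differed in p16 genotype in the WT groups. PMN-MDSCs were taken as Ly6G+ cells and Mo-MDSCs as Ly6G- Gr-1+ cells with a magnetic isolation kit. The labels give an age of 3 weeks, which in the methods is the time from tumour injection to isolation in adult mice. The labelled strain was C57BL/6J for WT and C57BL/6 for DKO mice, so genotype and strain label cannot be told apart. Whether each sample was 1 mouse or a pool is not given in the sources used here, and p-values measure the spread between these samples only.

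CDK inhibitors stop the kinases that drive cells through G1 and into S phase. The INK4 proteins, p16Ink4a and its relatives from Cdkn2b (p15), Cdkn2c (p18) and Cdkn2d (p19), bind CDK4 and CDK6 and keep D-type cyclins from activating them. The CIP/KIP proteins, p21Cip1/Waf1 from Cdkn1a, p27 from Cdkn1b and p57 from Cdkn1c, bind cyclin-CDK complexes more widely and inhibit CDK2 strongly. Cdkn2a also encodes ARF, a protein in another reading frame that restrains MDM2 and so stabilises p53. p16 and p21 are widely used marks of cellular senescence, while p18 and p27 are also known to hold back the division of blood progenitors. The comparison of DKO with WT Mo-MDSCs asks whether the remaining inhibitors changed where p16 and p21 were deleted, and that of WT Mo-MDSCs with WT PMN-MDSCs shows how the family is set in each subset.

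The positions of the genes bear on what a value for the whole gene can show. In the mm10 (GRCm38) mouse genome, with GENCODE gene models, Cdkn2a lies at chr4:89274471-89294653 on the minus strand with 2 transcripts. Their first exons are different, that of the p16 transcript at chr4:89281986-89282192 and that of the ARF transcript at chr4:89294334-89294653, and they share exon 2. Cdkn2b is its neighbour on the same strand, at chr4:89306299-89311039. Cdkn1a lies at chr17:29090976-29100727 on the plus strand with 5 transcripts. PCR primers for p16 and p21 used in the study are shown because they mark parts of the genes that a whole-gene value does not separate. Capitals mark the primer that lies outside the exons shared by the p16 and ARF transcripts.
p16Ink4a forward: GAACTCTTTCGGTCGTACCC
p16Ink4a reverse: cgaatctgcaccgtagttga
p21Cip1/Waf1 forward: ttgtcgctgtcttgcactct
p21Cip1/Waf1 reverse: tctcttgcagaagaccaatc
The p16 forward primer matched only the p16 transcript, in coding exon 1 at chr4:89281994-89282013, and the reverse primer matched both transcripts in exon 2 at chr4:89276926-89276945. The p21 forward primer lay at chr17:29098738-29098757 and the reverse primer at chr17:29099365-29099384, both in coding sequence and both in 4 of the Cdkn1a transcripts.

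The targeted genes were examined first. Cdkn2a was read at 0.718, 0.772 and 0.432 FPKM (read fragments scaled to transcript length and library size, so a level per length) in WT Mo-MDSC replicates 1 to 3. It was 0.258, 0.586 and 0 FPKM in the samples labelled DKO. The lowest WT value was below the highest DKO value, so the groups overlapped. WT had a mean of 0.641 ± 0.183 FPKM and the group labelled DKO 0.281 ± 0.294 FPKM (SD, n = 3 each), and a two-sided exact permutation test of log2(FPKM + 0.1) gave p = 0.2, where 3 against 3 samples cannot give less than 0.1. Each Cdkn2a value adds p16 and ARF transcripts, and at this level a difference was not detectable.

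Cdkn1a was not lower in the samples labelled DKO beyond the replicate spread. It was 8.18, 6.46 and 8.04 FPKM in WT Mo-MDSCs and 5.55, 8.52 and 6.00 FPKM in the samples labelled DKO, of which replicate 2 held the highest value of the 6. The difference, as a log2 fold change on the log2(FPKM + 0.1) scale, was -0.19 (SE 0.179, 95% interval -0.61 to 0.22, limma adjusted p = 0.637), and it was -0.012 in replicates 2 and 3 alone, whose library numbers belong to another series than those of replicate 1. With single samples left out in turn it lay between -0.38 (without DKO replicate 2, adjusted p = 0.251) and -0.07 (without DKO replicate 1, adjusted p = 0.870). This goes against a simple reading of the label. Which exons the deleted alleles lack is not given in the sources used here, and a value over all exons of a gene cannot show whether 1 part of it is missing, so neither value checks the genotype and the label was not tested. The group is therefore called "labelled DKO", and every direction given for it rests on that label.

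**Figure D1:**
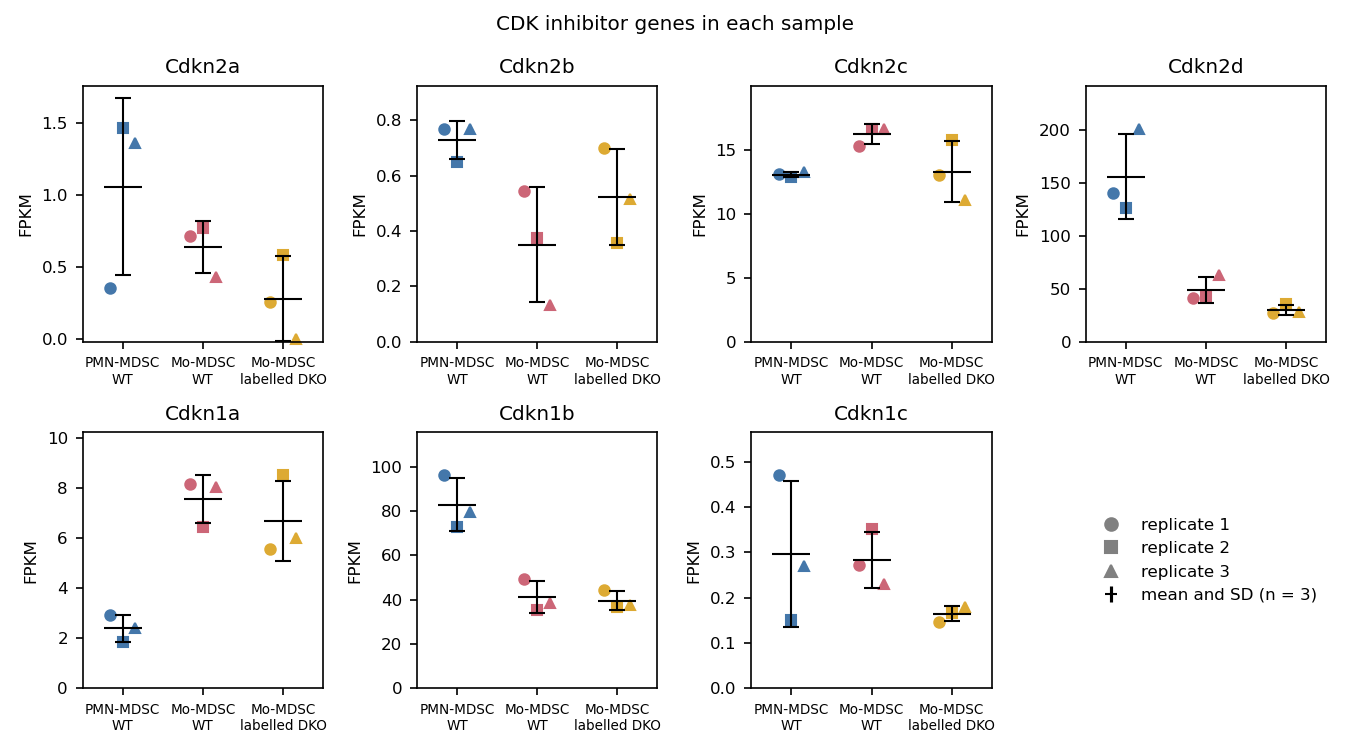
FPKM of the 7 CDK inhibitor genes in each of the 9 samples, on linear axes of different height, with the mean and SD of each group of 3. Cdkn2d, Cdkn1b and Cdkn1a separate the WT subsets, Cdkn1a in the samples labelled DKO spans 5.55 to 8.52 FPKM and overlaps WT Mo-MDSCs, and Cdkn2a is at 0 in 1 sample labelled DKO.

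The family covered a wide range of levels. In WT PMN-MDSCs the order by mean FPKM was Cdkn2d, Cdkn1b, Cdkn2c, Cdkn1a, Cdkn2a, Cdkn2b and Cdkn1c, from 156 ± 40.0 FPKM for Cdkn2d to 0.297 ± 0.161 FPKM for Cdkn1c (SD, n = 3). In this group the 3 samples of each gene lay apart from those of its neighbour in the order, except for Cdkn2a and Cdkn2b. WT Mo-MDSCs had the same order, but Cdkn2d and Cdkn1b overlapped there, as did Cdkn2a with Cdkn2b and Cdkn2b with Cdkn1c. In the samples labelled DKO, Cdkn1b stood above Cdkn2d without overlap, followed by Cdkn2c and Cdkn1a, and the ranges of Cdkn2b and Cdkn2a overlapped, as did those of Cdkn2a and Cdkn1c. In WT PMN-MDSCs 626 gene symbols were above Cdkn2d, and 1781 were in WT Mo-MDSCs.

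Added up, the 7 genes reached 254, 216 and 299 FPKM in the 3 WT PMN-MDSC samples, 116, 103 and 127 FPKM in WT Mo-MDSCs and 91.1, 97.7 and 83.2 FPKM in the samples labelled DKO. The 3 groups did not overlap in this sum, and Cdkn2d and Cdkn1b made up most of it. The FPKM total over all gene symbols separated the groups as well. WT PMN-MDSC replicates 1 to 3 had totals of 745408, 711675 and 916642. For WT Mo-MDSCs these were 569373, 549976 and 618250, and for the samples labelled DKO 528987, 534354 and 494252. The family sum ranked the 9 samples in the same order as this total, so its separation of the groups is not particular to the family. The INK4 genes held 66.2% ± 5.91 of the sum in WT PMN-MDSCs, 57.4% ± 6.65 in WT Mo-MDSCs and 48.6% ± 4.34 in the samples labelled DKO (SD, n = 3). The ratio of Cdkn2d to Cdkn1b was 1.91 in WT PMN-MDSCs, 1.23 in WT Mo-MDSCs and 0.773 in the samples labelled DKO, with single samples from 0.843 to 1.64 in WT Mo-MDSCs and from 0.605 to 0.962 in the samples labelled DKO. The 5 genes that were not targeted summed to 95.8 to 119 FPKM in WT Mo-MDSCs and to 77.2 to 88.6 FPKM in the samples labelled DKO. These sums are descriptions and were not tested. In bulk samples such as these, fewer cells of a type and less RNA per cell cannot be told apart.

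**Figure D2:**
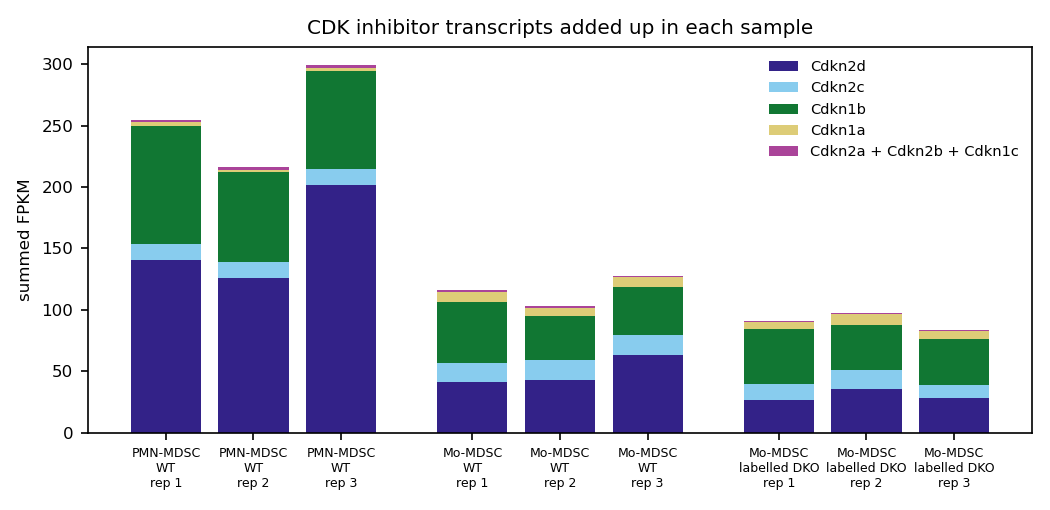
Summed FPKM of the 7 CDK inhibitor genes in each of the 9 samples (linear axis from 0), with the part of each gene in colour and Cdkn2a, Cdkn2b and Cdkn1c added together. The sums run from 216 to 299 FPKM in WT PMN-MDSCs, from 103 to 127 in WT Mo-MDSCs and from 83.2 to 97.7 in the samples labelled DKO, and Cdkn2d and Cdkn1b fill most of every bar.

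Marker genes of other cell types were detected in every group, although the methods describe the isolated fractions as highly pure, and their part in the results below was not tested. A list of 7 neutrophilic marker genes (Ly6g, the eighth, was not found under that symbol) summed to 8851 to 18234 FPKM in WT PMN-MDSCs and to 2166 to 6451 FPKM in WT Mo-MDSCs, where replicate 3 was the highest. The sum was 1032 to 2131 FPKM in the samples labelled DKO, below every WT sample. Cxcr2, a chemokine receptor of mature neutrophils, was 713 FPKM in WT PMN-MDSCs, 11.8 in WT Mo-MDSCs and 6.89 in the samples labelled DKO (means, n = 3). Its ranges overlapped between WT Mo-MDSCs (6.87 to 18.6 FPKM) and the samples labelled DKO (5.37 to 9.71 FPKM). Mmp8, of the same list, was 365, 49.2 and 86.6 FPKM in the same order, higher in every sample labelled DKO than in every WT Mo-MDSC sample. Of the monocytic markers, Ccr2 was 2.41, 326 and 180 FPKM in the same order, while Csf1r, the receptor for the macrophage growth factor CSF1, was 753, 797 and 826 FPKM and did not separate the groups. Cd14, of the same list, went the other way, at 98.5, 44.3 and 60.9 FPKM. Every WT Mo-MDSC sample had less Cd14 than every WT PMN-MDSC sample and every sample labelled DKO. The 8 monocytic genes summed to 1037 to 1092, 1867 to 2117 and 1503 to 1697 FPKM. Other lists were also detected. The 5 B cell genes summed to 1434 to 1635, 1020 to 1148 and 1092 to 1373 FPKM, the 5 red-pulp macrophage genes that were found to 4926 to 5830, 3049 to 3911 and 3249 to 5004 FPKM, and the 5 erythroid genes that were found to 1219 to 2899 FPKM over all 9 samples. The 5 myeloid progenitor genes summed to 4.89 to 14.5 FPKM in WT PMN-MDSCs, 21.9 to 36.0 FPKM in WT Mo-MDSCs and 7.97 to 15.5 FPKM in the samples labelled DKO, the last below every WT Mo-MDSC sample. Kit, of this list, differed from the sum, with means of 3.96, 1.91 and 2.27 FPKM in the same order. T cell genes summed to 12.2 to 28.1 FPKM, dendritic cell genes to 4.41 to 8.04 FPKM and NK cell genes to 1.51 to 3.26 FPKM. No listed gene that was found was at 0 in all samples of a group.

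Between the WT subsets, Cdkn1a rose and Cdkn2d and Cdkn1b fell in Mo-MDSCs against PMN-MDSCs, and Cdkn2c rose slightly. The limma fit took genes that reached 1 FPKM in 3 or more of the 6 samples, and a call is a Benjamini-Hochberg adjusted p below 0.05 over all of them. Of the 7 CDK inhibitors 4 passed this filter and all 4 were called, 2 in each direction, beside 39.1% of all 11491 genes tested. Cdkn2a, Cdkn2b and Cdkn1c did not pass it. WT PMN-MDSCs and WT Mo-MDSCs were distinct in many genes, and the groups did not overlap in 52.5% of the genes tested. A call or a lack of overlap in this comparison is therefore not particular to the family.

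Cdkn1a, the p21 gene, was 2.95, 1.83 and 2.40 FPKM in WT PMN-MDSCs, against 8.18, 6.46 and 8.04 FPKM in WT Mo-MDSCs. The lowest Mo-MDSC value was above the highest PMN-MDSC value, with means in a ratio of 3.16. The log2 fold change was 1.64 (SE 0.189, 95% interval 1.19 to 2.08, limma adjusted p = 0.000667). It was 1.73 in replicates 2 and 3 alone.

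Cdkn2d, the p19 gene and the most abundant member in both WT subsets, was 140, 126 and 201 FPKM in WT PMN-MDSCs and 41.6, 42.9 and 63.3 FPKM in WT Mo-MDSCs. The groups lay far apart, and replicate 3 was the highest in both. The log2 fold change was -1.66 (SE 0.221, limma adjusted p = 0.00128) and was -1.61 in replicates 2 and 3 alone. Like the neutrophilic marker sum, Cdkn2d was lower in WT Mo-MDSCs. The samples with the highest marker sum within each WT subset, replicate 3 in both, were also those with the most Cdkn2d. Replicates 1 and 2 kept the same order in WT PMN-MDSCs (sums of 11753 and 8851 FPKM). In WT Mo-MDSCs replicate 1 had the larger sum (3068 against 2166 FPKM) but slightly less Cdkn2d. The part of neutrophilic RNA in the difference was not tested.

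Cdkn1b, which encodes p27, was 96.2, 73.0 and 79.5 FPKM in WT PMN-MDSCs and 49.3, 35.5 and 38.6 FPKM in WT Mo-MDSCs. Every PMN-MDSC sample was higher, with a log2 fold change of -1.01 in Mo-MDSCs (SE 0.151, limma adjusted p = 0.00209) and -1.04 in replicates 2 and 3 alone. Within both subsets replicate 1 had the most Cdkn1b, while replicate 3 had the highest neutrophilic marker sum. The part of neutrophilic RNA in the Cdkn1b difference was not tested.

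Cdkn2c, which encodes p18, was 13.1, 12.9 and 13.2 FPKM in WT PMN-MDSCs and 15.3, 16.6 and 16.6 FPKM in WT Mo-MDSCs. The groups did not overlap, but the difference was small, with a log2 fold change of 0.31 (SE 0.073, limma adjusted p = 0.0149), and 0.35 in replicates 2 and 3 alone. The call was lost without WT Mo-MDSC replicate 2 (adjusted p = 0.0548), without WT Mo-MDSC replicate 3 (adjusted p = 0.0623) and with all 9 samples in 1 fit (adjusted p = 0.0668), and its adjusted p lay between 0.00618 and 0.0668 over the alternatives.

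The low members were described by their values and exact permutation tests, since they were under the filter. For Cdkn2b and Cdkn1c the FPKM values were whole multiples of the value of 1 read, within 0.000249 reads, so reads could be counted, with intervals that cover counting error only. Cdkn2b, the p15 gene, was 0.769, 0.650 and 0.770 FPKM in WT PMN-MDSCs, from 27 reads in all (95% exact Poisson interval 17.8 to 39.3). In WT Mo-MDSCs it was 0.545, 0.376 and 0.131 FPKM, from 15 reads (interval 8.40 to 24.7). The groups did not overlap, as in 52.5% of the 11491 genes tested, and the two-sided exact permutation test gave its smallest possible p, 0.1. Those genes passed the filter and do not include Cdkn2b, and no share was taken for genes at its level. Cdkn1c, the p57 gene, was 0.470, 0.151 and 0.269 FPKM in WT PMN-MDSCs and 0.272, 0.350 and 0.229 FPKM in WT Mo-MDSCs (exact permutation p = 0.9), from 15 and 18 reads. Cdkn2a was 0.355, 1.47 and 1.36 FPKM in WT PMN-MDSCs, with replicate 1 below all 3 WT Mo-MDSC samples and the others above them (exact permutation p = 0.6). It was not in whole multiples of 1 value, so its reads could not be counted.

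**Figure D3:**
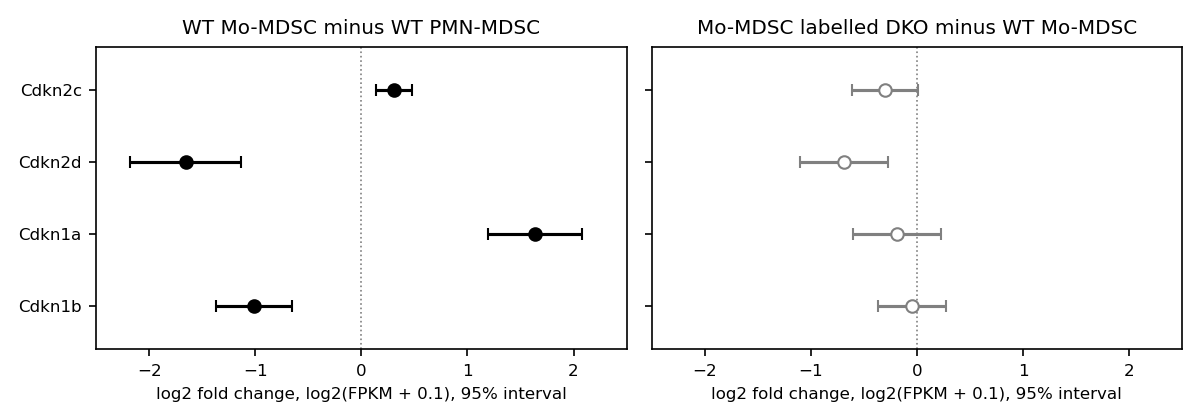
Log2 fold changes on the log2(FPKM + 0.1) scale with 95% intervals for the 4 CDK inhibitor genes that passed the filter, in WT Mo-MDSCs minus WT PMN-MDSCs (left) and in Mo-MDSCs labelled DKO minus WT Mo-MDSCs (right). Filled points have a limma adjusted p below 0.05. All 4 are filled on the left, from -1.66 for Cdkn2d to 1.64 for Cdkn1a, and none on the right, where the interval of Cdkn2d lies below 0.

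In Mo-MDSCs labelled DKO against WT Mo-MDSCs, no remaining CDK inhibitor passed the test, and none was higher than WT in every sample. Of the 7 genes, the same 4 passed the filter, and limma called 0 of the 4 at an adjusted p below 0.05 and 1, Cdkn2d, at an unadjusted p below 0.05. Over all 11451 genes tested, 0.253% were called and 15.0% had an unadjusted p below 0.05. This comparison shares the WT Mo-MDSC samples with the one above, so a WT Mo-MDSC sample that stands apart moves both. The limits of what could be seen are the intervals, and a p above the threshold does not show that the levels were equal.

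Cdkn2d was 41.6, 42.9 and 63.3 FPKM in WT Mo-MDSCs and 26.9, 35.5 and 28.1 FPKM in the samples labelled DKO. Every DKO value was below every WT value, with means in a ratio of 0.612, as groups did not overlap in 20.8% of all genes tested. The log2 fold change was -0.69 (SE 0.180, 95% interval -1.11 to -0.27, unadjusted p = 0.00543, limma adjusted p = 0.187), so the gene did not pass the test. A call was also set at an unadjusted limma p below 0.05 and a fold under 0.75. Cdkn2d was the 1 family member that passed it, beside 4.43% of all genes tested. The published selection of genes lower in DKO used the same cut-offs for p and fold. Its own test was not repeated here, so whether Cdkn2d passes that selection was not tested. Without WT Mo-MDSC replicate 3 the log2 fold change was -0.49 (limma adjusted p = 0.519), and in replicates 2 and 3 alone it was -0.72. The neutrophilic marker sum was also lower in every sample labelled DKO than in every WT Mo-MDSC sample, at 1032 to 2131 against 2166 to 6451 FPKM, and so were the myeloid progenitor sum and the monocytic sum (1503 to 1697 against 1867 to 2117 FPKM). Camp and Ltf were the 2 highest genes of the neutrophilic sum in both Mo-MDSC groups and weigh most in it. Camp was 985 FPKM in the samples labelled DKO against 2552 in WT and overlapped, and Ltf was 385 against 1099 FPKM without overlap. Csf1r, the highest gene of the monocytic sum, was 826 against 797 FPKM and overlapped. Of the myeloid progenitor genes, Prtn3 was 6.41 against 18.4 FPKM and Elane 1.49 against 5.00 FPKM, both without overlap. Kit, of the same list, was 2.27 against 1.91 FPKM and overlapped. Limma called 0 of the 7 neutrophilic and 0 of the 8 monocytic genes, with 4 and 5 lower and 1 and 1 higher at an unadjusted p below 0.05. The neutrophilic gene that was higher was Mmp8, at 86.6 against 49.2 FPKM, and the monocytic one was Cd14, at 60.9 against 44.3 FPKM. The part of the marker genes in the Cdkn2d difference was not tested.

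**Figure D4:**
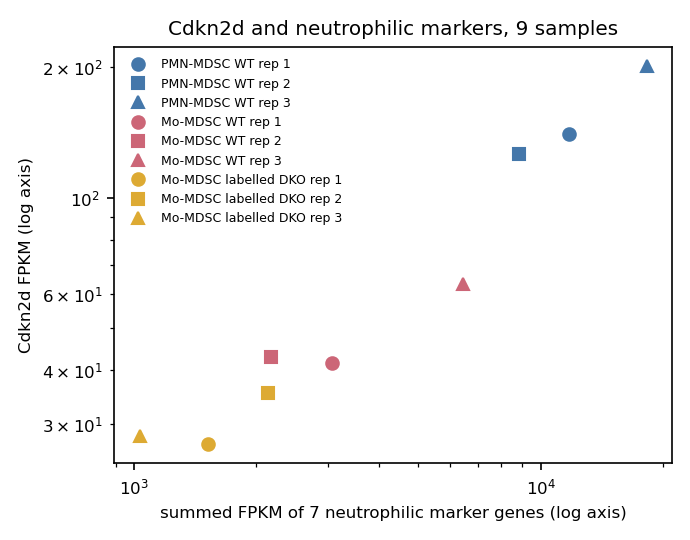
Cdkn2d FPKM against the summed FPKM of 7 neutrophilic marker genes in the 9 samples, both on log axes, with colours for the groups and shapes for the replicates. Camp and Ltf weigh most in the sum in both Mo-MDSC groups. The samples labelled DKO lie lowest on both axes (26.9 to 35.5 and 1032 to 2131 FPKM) and the WT PMN-MDSC samples highest (126 to 201 and 8851 to 18234 FPKM), with WT Mo-MDSC replicate 3 between them and the other WT Mo-MDSC samples.

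Cdkn1b gave the closest values of the family. It was 49.3, 35.5 and 38.6 FPKM in WT Mo-MDSCs and 44.5, 36.8 and 37.4 FPKM in the samples labelled DKO, with replicate 1 highest in both groups. The log2 fold change was -0.05 (SE 0.139, 95% interval -0.37 to 0.28, limma adjusted p = 0.894), and its sign was positive in replicates 2 and 3 alone, after quantile normalisation and without DKO replicate 2 or WT replicate 1. The values allow a change within that interval, in either direction.

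Cdkn2c was 15.3, 16.6 and 16.6 FPKM in WT Mo-MDSCs and 13.02, 15.8 and 11.0 FPKM in the samples labelled DKO, where replicate 2 fell within the WT range and the others below it. The log2 fold change was -0.30 (SE 0.133, 95% interval -0.61 to 0.01, limma adjusted p = 0.344). It was -0.33 in replicates 2 and 3 alone, -0.17 without DKO replicate 3 (adjusted p = 0.683) and -0.43 without DKO replicate 2 (adjusted p = 0.163).

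Cdkn2b, the neighbour of Cdkn2a, was 0.545, 0.376 and 0.131 FPKM in WT Mo-MDSCs and 0.700, 0.356 and 0.514 FPKM in the samples labelled DKO. The groups overlapped (two-sided exact permutation p = 0.5), so a difference was not detected. The 15 reads of WT and 24 reads of DKO had 95% Poisson intervals of 8.40 to 24.7 and 15.4 to 35.7. Scaled to relative depth they were 4.38 and 6.61 reads per unit. The intervals overlap, which is not a test of a difference. Cdkn1c was 0.272, 0.350 and 0.229 FPKM in WT Mo-MDSCs and 0.147, 0.166 and 0.180 FPKM in the samples labelled DKO. These did not overlap, as in 20.8% of the 11451 genes tested, which do not include Cdkn1c (exact permutation p = 0.1, the smallest the design allows). The Cdkn1c values rest on 18 reads (interval 10.7 to 28.4) against 11 reads (interval 5.49 to 19.7), or 5.25 against 3.03 reads per unit of relative depth. These intervals overlap too.

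The partners of the inhibitors were counted in the same way. In Mo-MDSCs labelled DKO against WT, limma called 0 of 82 genes of the 6 pathway lists, and 11 (13.4%) had an unadjusted p below 0.05, beside 15.0% of all genes. Their median log2 fold change was 0.01, beside -0.02 for all genes. In WT Mo-MDSCs against PMN-MDSCs 9 of 81 were higher and 13 lower, together 27.2% beside 39.1% of all genes, with a median of 0.05 beside 0.01.

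Among 12 CDKs and cyclins, the kinases and activators that the family inhibits, 1 rose and 2 fell in WT Mo-MDSCs against PMN-MDSCs. Cdk6, a target of the INK4 proteins, rose from 2.26 to 3.70 FPKM (log2 fold change 0.69, limma adjusted p = 0.0166). The D-type cyclin genes Ccnd2 (29.5 to 17.4 FPKM, log2 fold change -0.76) and Ccnd1 (8.38 to 5.52 FPKM, log2 fold change -0.60) fell, with limma adjusted p-values of 0.000789 and 0.0121. In the samples labelled DKO against WT Mo-MDSCs none was called. Cdk6 was 5.31 against 3.70 FPKM (limma adjusted p = 0.240), Ccnd2 21.9 against 17.4 FPKM (0.287) and Ccnd1 7.19 against 5.52 FPKM (0.293). These 3 had an unadjusted p below 0.05, and Ccnd1 was named after its values were seen.

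Of 13 genes of the RB and E2F families, the pocket proteins that CDKs phosphorylate and the transcription factors they hold, 4 rose and 1 fell in WT Mo-MDSCs against PMN-MDSCs. The log2 fold changes were 0.51 for Rbl1 (p107), 0.47 for E2f1, 0.40 for E2f6 and 0.37 for Rb1, and -0.32 for Rbl2 (p130), which binds E2F in resting cells, with limma adjusted p-values from 0.0032 to 0.0257. None was called in the samples labelled DKO, where E2f6 was 8.88 against 7.30 FPKM in WT (limma adjusted p = 0.287) and E2f2 36.3 against 43.4 FPKM (0.470).

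Of 19 transcriptional regulators of CDK inhibitors, 2 rose and 6 fell in WT Mo-MDSCs against PMN-MDSCs. Klf4, a factor that activates Cdkn1a and is known for its role in monocyte development, rose from 3.07 to 29.9 FPKM (log2 fold change 3.25, limma adjusted p = 4.18e-05). Ets2, an activator of the p16 promoter, fell from 26.2 to 6.66 FPKM (log2 fold change -1.96), and Kdm6b, a demethylase that removes the Polycomb mark from the Cdkn2a locus, fell from 67.0 to 23.3 FPKM (log2 fold change -1.51). Id1, an inhibitor of E proteins that opposes p16 transcription, fell from 24.8 to 10.0 FPKM (log2 fold change -1.30), and Foxo3, an activator of Cdkn1b, from 26.9 to 17.1 FPKM (log2 fold change -0.65, limma adjusted p = 0.0205). None was called in the DKO comparison, where Klf4 was 18.6 against 29.9 FPKM in WT (log2 fold change -0.68, unadjusted p = 0.0017, limma adjusted p = 0.141) and Id1 4.48 against 10.0 FPKM (log2 fold change -1.21, limma adjusted p = 0.199).

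Of 12 genes that act in the destruction of CDK inhibitors or partner ARF, 1 fell in WT Mo-MDSCs against PMN-MDSCs: Mdm2, the p53 ligase that ARF restrains, went from 38.9 to 30.4 FPKM (log2 fold change -0.36, limma adjusted p = 0.0195). Rnf123, part of a ligase for p27, was 21.4 and 29.9 FPKM and did not pass (0.0745). None was called in the DKO comparison, and Skp2, which sends p27 for degradation in S phase, was 15.1 against 12.5 FPKM in WT (limma adjusted p = 0.367) and Dtl, of the ligase that removes p21 in S phase, 6.47 against 4.52 FPKM (0.414).

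Other restraints on CDKs numbered 9, of which 8 were tested between the WT subsets. There Cdk2ap2 fell from 431 to 175 FPKM (log2 fold change -1.29), Hexim1, which holds the transcriptional kinase CDK9 inactive, from 38.0 to 16.5 FPKM (-1.19 on the same scale) and Ccndbp1, a cyclin D binding protein, from 64.4 to 39.7 FPKM (-0.69), and Pkmyt1, a kinase that inhibits CDK1, rose from 6.07 to 8.78 FPKM (0.54). The largest limma adjusted p of these 4 was 0.0383, that of Pkmyt1. In the samples labelled DKO none was called, and Cables1 was 1.05 against 0.587 FPKM in WT (limma adjusted p = 0.256) and Cdk2ap2 137 against 175 FPKM (0.257).

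Proliferation genes were expressed in every group. The 17 genes summed to 484 to 682 FPKM in WT PMN-MDSCs, 515 to 756 FPKM in WT Mo-MDSCs and 480 to 836 FPKM in the samples labelled DKO, and replicate 1 was the lowest in all 3 groups. Between the WT subsets 1 of 17 rose, Aurkb, a mitotic kinase gene, from 13.4 to 19.4 FPKM (limma adjusted p = 0.0339), and the next, Bub1, was 3.32 and 4.55 FPKM (0.0773). Limma called 0 of 17 in the samples labelled DKO, also at an unadjusted p below 0.05, where Aurkb was 15.3 against 19.4 FPKM in WT (adjusted p = 0.422) and Plk1 11.9 against 16.6 FPKM (0.465).

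**Figure D5:**
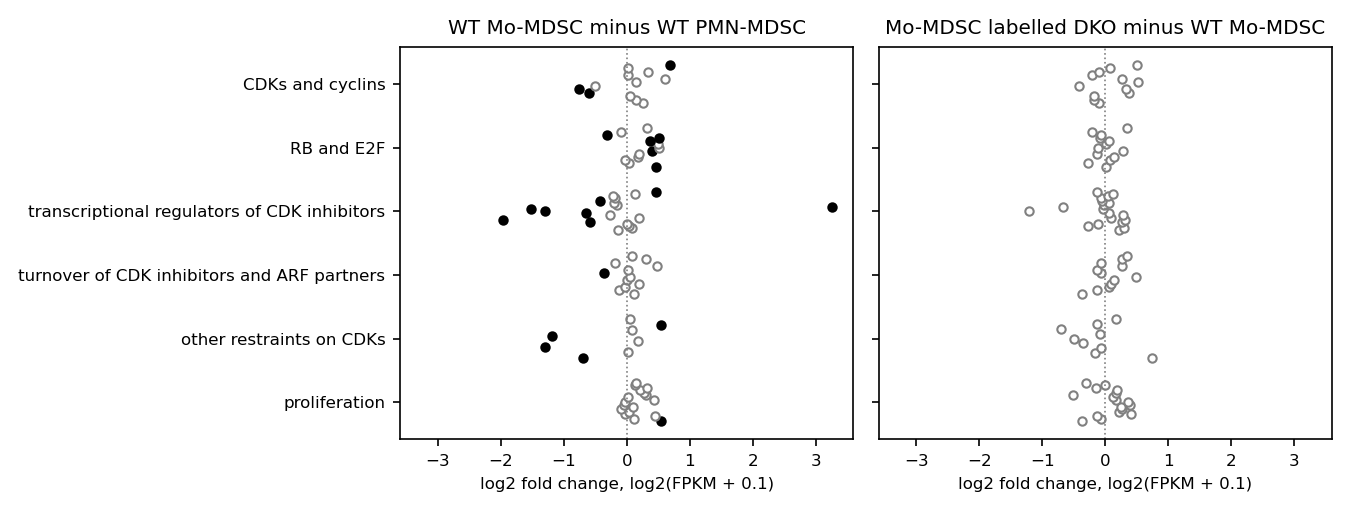
Log2 fold changes on the log2(FPKM + 0.1) scale of the tested genes of 6 pathway lists, 1 point a gene, in WT Mo-MDSCs minus WT PMN-MDSCs (left, 81 genes) and in Mo-MDSCs labelled DKO minus WT Mo-MDSCs (right, 82 genes). Filled points have a limma adjusted p below 0.05: 22 on the left, with Klf4 farthest to the right at 3.25, and 0 on the right.

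The members differed in which other genes followed them across samples. By Pearson's r of log2(FPKM + 0.1), over 11725 genes, those most like Cdkn2d over the 9 samples were Rab27a (r = 0.998), Rasgrp4 and Mxi1, all lowest in the samples labelled DKO, at 15.3, 19.7 and 7.01 FPKM, and highest in WT PMN-MDSCs, at 72.5, 77.2 and 21.3 FPKM. The gene most like Cdkn1b over the 9 samples was Rchy1 (r = 0.997), with 28.8 FPKM in the WT Mo-MDSC group and 27.5 FPKM in the samples labelled DKO. Those most like Cdkn2c were N6amt2 (r = 0.965), Rab7l1 and Psma7, and over the 6 WT samples those most like Cdkn1a were Gtf3c2 (r = 0.998), Rnase4 and Uggt1. These values describe samples that fall into groups and share libraries, so they mostly follow the group levels.

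The sequences before the starts of Cdkn1a and Cdkn1b are shown because these genes moved in opposite directions between the WT subsets. Each is the 250 bases before a RefSeq start in GRCm38.p6 on the plus strand, Cdkn1a at chr17:29093519-29093768, the downstream one of its 2 RefSeq starts, and Cdkn1b at chr6:134920151-134920400. RefSeq entries were matched for 6 of the 7 members, and not for Cdkn1c. Capitals mark the GC box (GGGCGG, searched on both strands), a motif bound by SP1-family factors.
Cdkn1a: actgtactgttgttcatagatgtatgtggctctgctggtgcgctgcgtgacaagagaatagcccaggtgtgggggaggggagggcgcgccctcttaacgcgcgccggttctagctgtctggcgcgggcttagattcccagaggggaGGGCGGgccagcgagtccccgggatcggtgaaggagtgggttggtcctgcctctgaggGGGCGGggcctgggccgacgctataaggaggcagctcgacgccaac
Cdkn1b: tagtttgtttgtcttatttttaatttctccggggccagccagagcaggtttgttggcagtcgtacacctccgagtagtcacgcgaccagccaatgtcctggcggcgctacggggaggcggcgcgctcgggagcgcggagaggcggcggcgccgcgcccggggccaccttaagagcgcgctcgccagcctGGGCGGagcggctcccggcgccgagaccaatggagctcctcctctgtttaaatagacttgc
The Cdkn1a window shown held 2 GC boxes, that before its other start (chr17:29090729-29090978) held 0 and that of Cdkn1b held 1, and 32.7% of 32851 such windows held at least 1. The core SMAD motif (CAGAC, both strands) occurred once in each Cdkn1a window and not in that of Cdkn1b, and 42.2% of all windows held it. The window of Cdkn2d, which also fell in WT Mo-MDSCs, held 2 SMAD motifs and 3 GC boxes. Those of Cdkn2c, which rose slightly, held 1 and 0 SMAD motifs and, in the same order, 0 and 3 GC boxes. Whether either motif bears on the direction of change was not tested. A match describes the letters and is not a site shown to be used.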

How the data were processed

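RNA from 9 samples was sequenced as stranded mRNA libraries, and the authors mapped 75-base single-end reads to mm10 with TopHat2 2.0.13, Bowtie2 2.2.3 and SAMtools 0.1.19 and deposited FPKM values per gene symbol from Cuffnorm 2.2.1. The annotation and the scaling between libraries are not given in the sources used here. FPKM values are not counts and were not tested as such. Reads shared by near-identical genes may have been divided between them.

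Values were used as deposited, as log2(FPKM + 0.1), so that fold changes of low genes are understated. Genes that reached 1 FPKM in 3 or more of the 6 samples of a comparison entered a fit with limma 3.58.1 in R 4.3.3 (lmFit, eBayes with trend, no covariates), with Benjamini-Hochberg adjustment over all genes tested. The scripts were tested on simulated data. Single genes had two-sided exact permutation tests over all 20 divisions of the samples. Groups and replicates came from the labels. Total depth is not in the files. The depth relative to WT Mo-MDSC replicate 1, found from the steps of low values and including any scaling by Cuffnorm, was 0.809 to 1.31, and the median SE was 0.122 (DKO against WT Mo-MDSCs) and 0.118 (WT Mo-MDSCs against PMN-MDSCs). Values that could be read in whole reads were accepted within 0.06 reads.

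The pathway genes named are those called, at most 5 a list and comparison by size of change, or, where fewer than 2 were called, the 2 with the smallest unadjusted p. Of each marker list at most 2 genes were to be named by their mean, and Cxcr2, Mmp8, Ccr2, Cd14 and Kit were named after their values were seen. For each member over the filter the 3 genes with the highest correlation were named, except that some are not reported here. Members and lists were chosen with earlier results of these data known. Deviations from the group means correlated between same-numbered WT Mo- and PMN-MDSC samples (r = 0.294, 0.483 and 0.200), and between different-numbered ones at -0.429 to 0.050. Deviations within a group add to 0, so the second set is tied to the first. Whether same-numbered samples were paired was not tested, and no label says so. The reported fits used no pairs, and the replicate block is among the alternatives. Alternatives were other pseudocounts, filters, normalisations, thresholds and fits, the replicate block, and leaving out samples.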

Additional observations from a re-analysis of the deposited data

How the results depend on the processing

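In DKO against WT Mo-MDSCs the number of CDK inhibitors called by limma was 0 under every alternative run except the fold sizes of the study, taken here in both directions (a fold below 0.75 or above its inverse, and below 0.75 or above 2 between the WT subsets, with an unadjusted p below 0.05), which passed 1 (Cdkn2d). The number of all genes called depended more on the settings, at 29 as reported, 13 with no filter on low values, 51 with all 9 samples fitted together, 6 in replicates 2 and 3 alone, 801 by these fold sizes in both directions (507 of them lower), 0 with no variance moderation (1719 of the genes had an unadjusted p below 0.05 with moderation), and 8 to 25 with 1 sample left out. In WT Mo-MDSCs against PMN-MDSCs 3 or 4 CDK inhibitors were called under every alternative, and 4492 genes became 2759 in replicates 2 and 3 alone and 2446 by the fold sizes in both directions, with 3295 to 3864 when 1 sample was left out. The log2 fold change of Cdkn1b in DKO against WT was -0.05 as reported, 0.0050 with quantile normalisation, 0.0038 in replicates 2 and 3 alone, 0.0027 without DKO replicate 2 and 0.0911 without WT Mo-MDSC replicate 1, and ran from -0.145 to 0.0911 over all samples left out in turn. The causes were not tested. With 2 samples left in a group, the spread was taken from the pooled estimate.

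With a replicate block, 20 genes and 0 CDK inhibitors were called in DKO against WT Mo-MDSCs. Same-numbered samples correlated there at 0.348, 0.226 and -0.070, and different-numbered samples at -0.388 to 0.174. Whether the replicate number marks something shared by these 2 groups was not tested. In WT Mo-MDSCs against PMN-MDSCs the block gave 6584 genes and 4 CDK inhibitors. The block changed no call of a CDK inhibitor. Log2 fold changes of the 3 low members moved with the pseudocount, that of Cdkn2a in DKO against WT from -1.32 to -2.43 with 0.01. Low levels limit what could be seen for Cdkn2a, Cdkn2b and Cdkn1c.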
